A study of Oryctolagus cuniculus with 16 samples.

Results

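Blood stem cells live in bone marrow beside stromal and endothelial cells that hold and feed them, a surrounding called the niche. Perivascular stromal cells, marked by the leptin receptor LEPR and kept in their state by the transcription factor FOXC1, make the chemokine CXCL12, the growth factor KITLG (stem cell factor) and the vascular factor ANGPT1, and show the adhesion molecule VCAM1 on their surface. Stem and progenitor cells carry the matching receptors CXCR4, KIT and FLT3 and the surface protein CD34, which endothelial cells also make. These 10 genes were looked up by gene symbol, and all 10 were found among the 20255 genes listed for femoral head tissue of rabbits.

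Total RNA from femoral heads was sequenced for 5 rabbits with Perthes disease (genotype label Perthes' disease, libraries TB-1 to TB-5) and 3 control rabbits (genotype label WT, libraries TD-1 to TD-3). The disease label stands for an operation: at 8 weeks of age the femoral neck was ligated and the ligamentum teres was cut, which stops the blood supply of the epiphysis. Whether the controls had a sham operation, their age, and the time from operation to sampling were not given in the sources used here. The tissue is a mixture of marrow, bone and cartilage, so fewer cells of a type and less RNA per cell cannot be told apart in any value below.

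The libraries held 27331725 to 29461482 counts in the Perthes disease group and 26757087 to 28783082 in the control group. Levels are given in CPM, each count set relative to its library's total after TMM scaling, and every log2 fold change is Perthes disease against control. The cartilage markers *COL2A1*, *ACAN*, *SOX9*, *COL9A1* and *MATN3*, summed, reached 32803 to 131800 CPM in the Perthes disease group and 45585 to 62098 CPM in the controls. The 7 osteoblast and osteocyte markers summed to 1641 to 3033 CPM and 1093 to 2123 CPM, and no marker of either list was at 0 in a library. Perthes rabbit 2 was set apart from the other Perthes rabbits by its erythroid markers. The 8 erythroid markers summed to 32.9, 2314, 398, 447 and 79.1 CPM in Perthes rabbits 1 to 5, and to 4905 to 5553 CPM in the controls. The results that rest on rabbit 2 are therefore given with and without it. It was singled out from these same data, so the values without it are descriptive.

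*CXCR4*, the receptor that holds blood cells in marrow through CXCL12, was the only member that passed the test. It was 2.64-fold lower in the Perthes disease group. *CXCL12*, *KIT* and *VCAM1* had estimates of similar size and were below every control in Perthes rabbits 1, 3, 4 and 5, but not in rabbit 2. *KITLG*, *LEPR*, *ANGPT1*, *FLT3*, *CD34* and *FOXC1* had overlapping groups and smaller estimates. In edgeR's quasi-likelihood test with Benjamini-Hochberg adjustment over 15305 genes, 1 of the 10 members was called lower at an adjusted p below 0.05 and 0 were called higher. Across all tested genes 15.1% were called, 8.87% lower and 6.21% higher, so 1 in 10 is near the background. The median log2 fold change was -0.48 over the 10 members and 0.02 over all tested genes. With library totals in place of TMM, the share of calls that were lower moved from 58.8% to 71.5% over all genes, and *CXCR4* stayed the single member called.

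**Figure D1:**
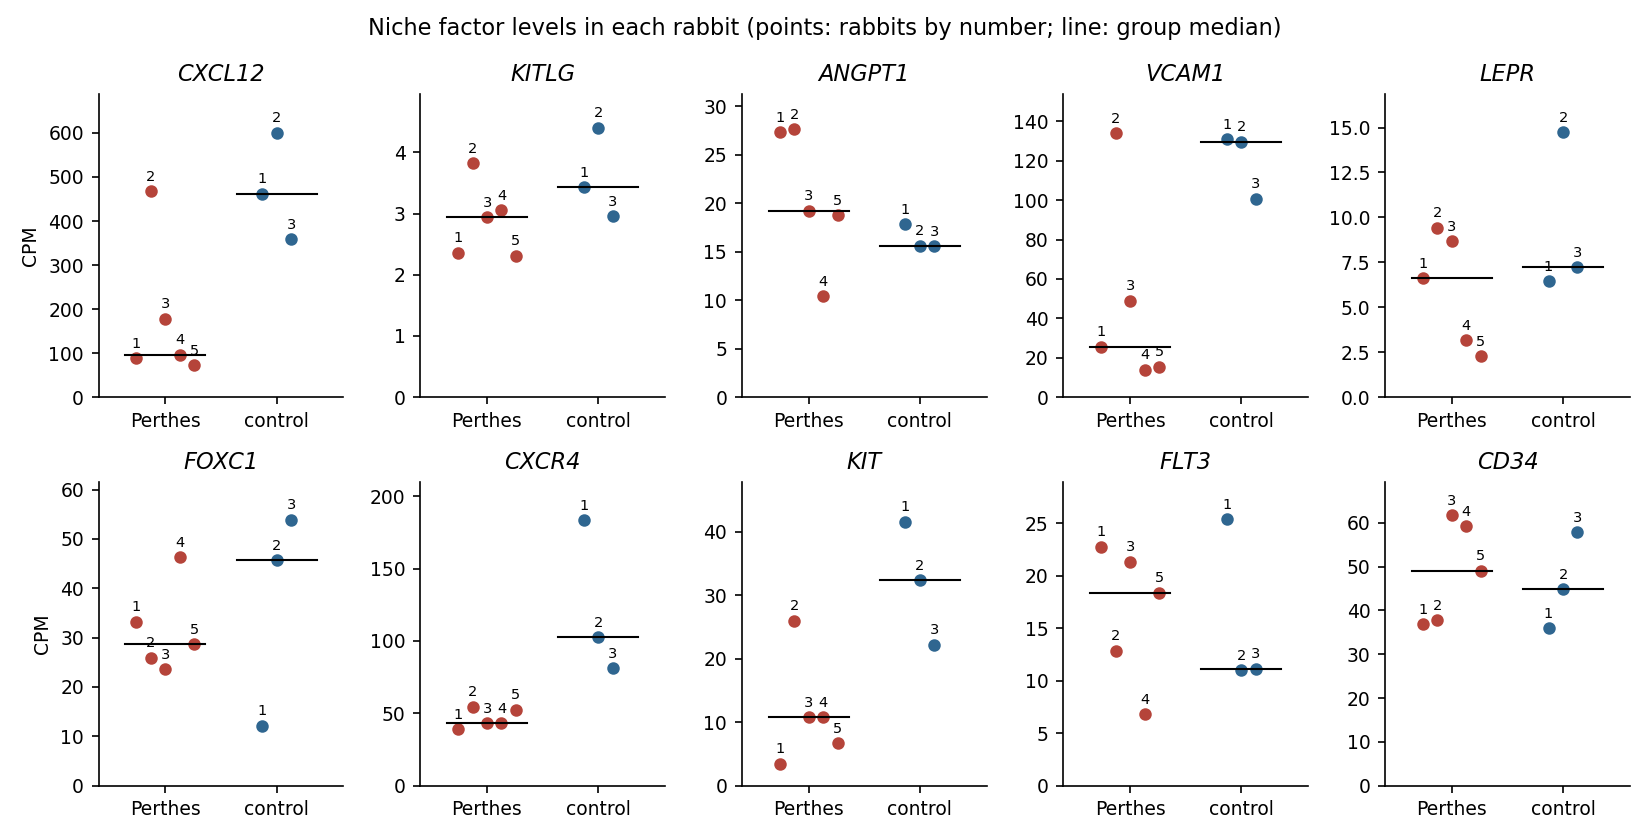
CPM of the 10 niche factors in each femoral head library, with red points for the 5 Perthes rabbits, blue points for the 3 controls (numbered as in the labels) and a line at the group median. *CXCR4* is the panel in which the groups do not overlap, and rabbit 2 stands at control height for *CXCL12* (467 CPM) and *VCAM1* (134 CPM).

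The niche signals come first. *CXCL12* (gene 103345545) encodes the chemokine that attracts and retains CXCR4-bearing cells. It was at 88.9, 467, 178, 96.0 and 72.5 CPM in Perthes rabbits 1 to 5, and at 462, 600.4 and 359 CPM in control rabbits 1 to 3. Rabbit 2 lay inside the control range, while the other 4 lay at 15.7% to 38.6% of the control median. The means were 181 ± 165 CPM (SD, n = 5) and 474 ± 121 CPM (SD, n = 3). This made a log2 fold change of -1.39, with a standard error of 0.58 and a 95% interval from -2.71 to -0.08, which did not pass after adjustment (adjusted p = 0.136 from edgeR). Without Perthes rabbit 2 it was -2.12 with an adjusted p of 0.00535 from edgeR.

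*KITLG* (gene 100009028) encodes the ligand of KIT, on which stem cells, mast cells and early red cells depend. Its counts were low, with 70, 102, 80, 84 and 68 in Perthes rabbits 1 to 5 and 96, 125 and 89 in the controls. These are 2.36, 3.82, 2.94, 3.05 and 2.31 CPM against 3.43, 4.41 and 2.96 CPM. The groups overlapped in rabbits 2 and 4, and rabbit 3 lay just under the lowest control. Its estimate on the log2 scale was -0.31 (95% interval -0.89 to 0.26, adjusted p = 0.431 from edgeR), and -0.14 without control rabbit 2.

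*ANGPT1* (gene 100342781) encodes the ligand of the endothelial and stem cell receptor TEK. It was at 27.3, 27.6, 19.2, 10.4 and 18.7 CPM in Perthes rabbits 1 to 5 and at 17.8, 15.6 and 15.6 CPM in the controls. Rabbits 1, 2, 3 and 5 were above every control and rabbit 4 was below them. The estimated log2 difference was 0.34 (95% interval -0.33 to 1.01, adjusted p = 0.463 from edgeR), and leaving out single rabbits moved it from 0.21 without rabbit 2 and 0.22 without rabbit 1 to 0.51 without rabbit 4 (adjusted p = 0.117 from edgeR).

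*VCAM1* (gene 100008901) encodes the adhesion molecule that binds the integrin of ITGA4 and ITGB1 on blood cells. It was at 25.6, 134, 48.9, 14.0 and 15.5 CPM in Perthes rabbits 1 to 5 and at 131, 129.6 and 101 CPM in the controls. Rabbit 2 was above all 3 controls, and rabbits 4 and 5 were at 10.8% and 11.97% of the control median. Over all 8 rabbits the log2 difference was -1.34, with a standard error of 0.68 (95% interval -2.87 to 0.19, adjusted p = 0.207 from edgeR). It was -2.21 without rabbit 2, with an adjusted p of 0.0102 from edgeR.

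The stromal identity genes did not separate the groups. *LEPR* (gene 100351924) was at 6.62, 9.43, 8.66, 3.16 and 2.28 CPM in Perthes rabbits 1 to 5 and at 6.46, 14.7 and 7.21 CPM in the controls. Rabbits 4 and 5 were below every control and the other 3 were within the control range. The log2 fold change was -0.65 (95% interval -1.75 to 0.45, adjusted p = 0.389 from edgeR), and control rabbit 2 decided its size, since it was -0.18 without that rabbit.

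*FOXC1* (gene 103352276) was at 33.2, 25.9, 23.6, 46.3 and 28.6 CPM in the Perthes disease group. The controls spanned more than that, at 12.1, 45.7 and 53.9 CPM. Its log2 difference was -0.24 (95% interval -1.19 to 0.71, adjusted p = 0.728 from edgeR), and it ranged from -0.66 without control rabbit 1 to 0.12 without control rabbit 3.

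The receptors on blood cells follow. *CXCR4* (gene 100346189) was at 38.8, 54.6, 43.1, 43.3 and 52.4 CPM in Perthes rabbits 1 to 5 and at 184, 103 and 81.3 CPM in the controls. Every Perthes rabbit was below every control, as in 13.9% of all tested genes (25.2% had groups apart in either direction), and the 5 Perthes rabbits lay close together. The means were 46.4 ± 6.74 CPM (SD, n = 5) and 122.5 ± 53.9 CPM (SD, n = 3). On the log2 scale this was a difference of -1.40, with a standard error of 0.26 (95% interval -1.98 to -0.82, adjusted p = 0.0136 from edgeR). Without Perthes rabbit 2 it was -1.46 (adjusted p = 0.0102 from edgeR). The call was lost without control rabbit 2, where the estimate was -1.51 with an adjusted p of 0.0519 and edgeR called 0 genes of any kind. DESeq2 gave -1.40 with an adjusted p of 6.29e-05.

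*KIT* (gene 100327263) encodes the receptor of KITLG. It was at 3.44, 26.0, 10.8, 10.8 and 6.67 CPM in Perthes rabbits 1 to 5 and at 41.6, 32.4 and 22.2 CPM in the controls. Rabbit 2 was within the control range and rabbit 1 was at 10.6% of the control median. Its log2 difference was -1.48, with a standard error of 0.53 (95% interval -2.68 to -0.28, adjusted p = 0.0923 from edgeR). It was -2.02 without rabbit 2 (adjusted p = 0.0118 from edgeR), and DESeq2 called it in all 8 rabbits at -1.48 (adjusted p = 0.0343). DESeq2 called more genes lower than edgeR did, 1917 of 17451 tested genes against 1357 of 15305.

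*FLT3* (gene 108175474) encodes the receptor of FLT3LG on lymphoid, myeloid and dendritic cell progenitors. It was at 22.8, 12.9, 21.4, 6.80 and 18.4 CPM in the Perthes disease group and at 25.4, 10.997 and 11.2 CPM in the controls. The groups overlapped, though Perthes rabbit 4 was below every control. The log2 fold change was 0.05 (95% interval -0.90 to 1.01, adjusted p = 0.942 from edgeR). Its sign turned with the library left out, from -0.15 without control rabbit 2 to 0.57 without control rabbit 1. None of 4 dendritic cell markers passed in edgeR (1 at an unadjusted p below 0.05, 0 higher and 0 lower in DESeq2), and they summed to 22.6 to 58.1 CPM and 38.0 to 90.4 CPM.

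*CD34* (gene 100343670) was at 36.8, 37.7, 61.7, 59.2 and 49.1 CPM in Perthes rabbits 1 to 5 and at 35.9, 44.8 and 57.9 CPM in the controls. Its log2 fold change of 0.08 had the narrowest interval of the 10 members, from -0.45 to 0.62 (adjusted p = 0.836 from edgeR). Of 12 sinusoid and endothelial genes, 1 was higher and 1 lower, and their median log2 fold change was 0.02. *STAB1*, a scavenger receptor of sinusoids and macrophages, rose by 1.53 (adjusted p = 0.04996 from edgeR, standard error 0.45). Its groups overlapped, with Perthes rabbit 4 at 153 CPM and the controls at 115 to 216 CPM. *STAB2*, named after its value was seen, had a log2 fold change of -1.22 (adjusted p = 0.311 from edgeR), with 4 Perthes rabbits below all controls. Of the 12 estimates, 6 were above 0 and 6 below. *ERG*, an endothelial and stem cell transcription factor, fell by 0.59 (adjusted p = 0.0358 from edgeR, standard error 0.16).

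**Figure D2:**
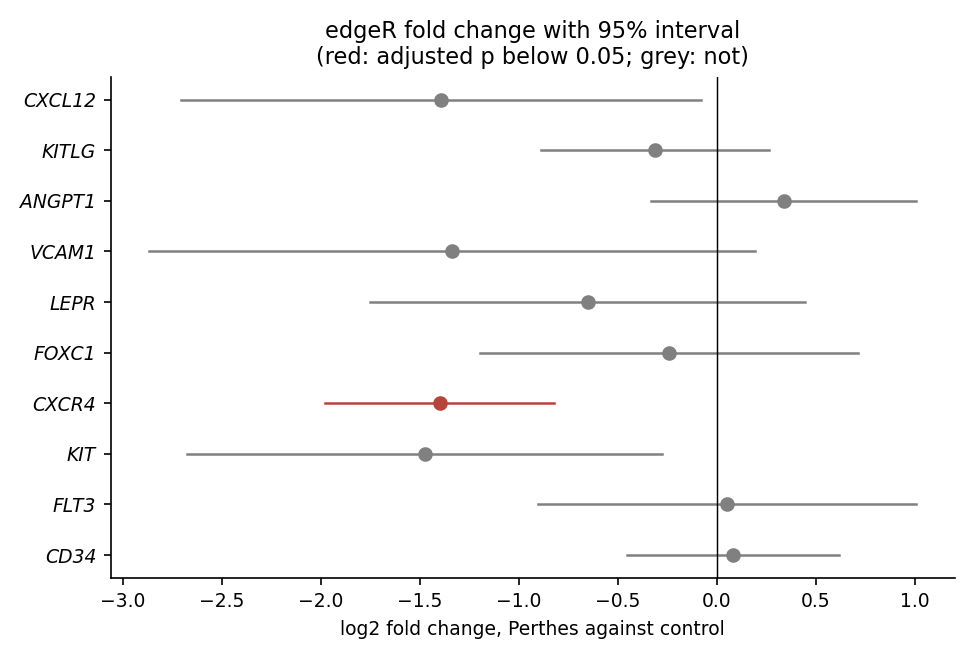
Log2 fold change of each niche factor (point, edgeR) with its 95% interval (bar), ordered as stromal signals, stromal identity genes and blood cell genes. Red marks the adjusted p of *CXCR4* below 0.05, and the grey bars of *CXCL12* and *KIT* reach down to -2.71 and -2.68.

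Rabbit 2 was the highest of the Perthes disease group for 7 of the 10 members (*CXCL12*, *CXCR4*, *KITLG*, *KIT*, *VCAM1*, *LEPR* and *ANGPT1*) and the lowest for 0. Among all tested genes it was the highest in 22.7%. In *CXCL12*, *KIT* and *VCAM1* it was the single Perthes rabbit not below all controls, a pattern found in 2.91% of all tested genes. Without it, edgeR called 4 members lower, *CXCR4*, *CXCL12*, *KIT* and *VCAM1*, where 10.7% of the 15232 genes tested in that fit were called lower. Rabbit 2 was singled out from these same data, so this fit is no independent support for those calls. Leaving out any other single rabbit left 1 member called lower, or 0 without control rabbit 2. The lowest values were shared out, with 3 members lowest in rabbit 1, 3 in rabbit 4 and 3 in rabbit 5.

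The summed erythroid, neutrophil and megakaryocyte markers were also highest in rabbit 2 among the Perthes rabbits. For the neutrophil markers rabbit 4 was close to it. Summed neutrophil lineage markers (6 of 9 listed were in the table) were at 24.8, 1775, 683, 1692 and 184 CPM in Perthes rabbits 1 to 5, against 6698 to 22115 CPM in the controls. Summed megakaryocyte markers (5 of 6) were at 6.62, 98.7, 30.4, 28.5 and 14.5 CPM, against 156 to 428 CPM. In rabbit 2 the erythroid, megakaryocyte and neutrophil sums were 41.9%, 42.2% and 25.5% of the control median, while *CXCL12* was 101%, *VCAM1* 103% and *KIT* 80.3%. In rabbit 1 the same sums were 0.595%, 2.83% and 0.356%, with *CXCL12* at 19.2%, *VCAM1* at 19.7% and *KIT* at 10.6%. In rabbit 4 the sums were 8.09%, 12.2% and 24.3%, with *CXCL12* at 20.8%, *VCAM1* at 10.8% and *KIT* at 33.3%. *CXCR4* kept to 37.8% to 53.2% in all 5 rabbits. The megakaryocyte markers *GP9* and *GP1BA* had 0 counts in rabbit 1, and no erythroid or neutrophil marker was at 0 in any library. The part of cell composition in the lower members was not tested.

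**Figure D3:**
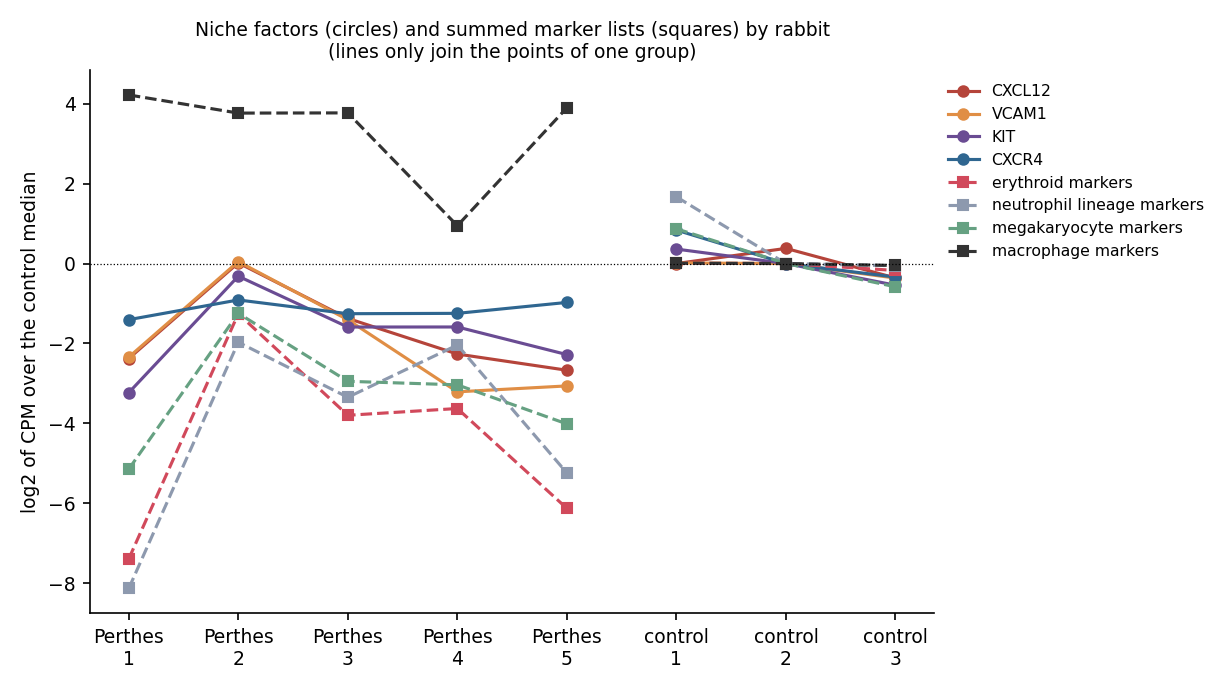
Log2 of the CPM over the control median for *CXCL12*, *VCAM1*, *KIT* and *CXCR4* (circles, solid lines) and for the summed CPM of 4 marker lists (squares, dashed lines), by rabbit on the horizontal axis. Rabbit 2 is the peak of the Perthes disease group for the 4 genes and for the erythroid, neutrophil and megakaryocyte lists, and the summed macrophage markers lie above the controls in all 5 Perthes rabbits (702 to 6790 CPM against 352 to 367 CPM).

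The pairing of signals with receptors was examined within each library as the difference of log2 CPM, a quantity that library scaling hardly moves. For *KITLG* minus *KIT* it was -0.53, -2.74, -1.85, -1.79 and -1.50 in Perthes rabbits 1 to 5 and -3.57, -2.86 and -2.88 in the controls. All 5 Perthes rabbits were above all 3 controls, rabbit 2 by a small margin. The group difference was 1.42 (exact permutation test, two-sided p = 0.0357, the smallest that 5 rabbits against 3 allow). Over the 5 pairs the adjusted p was 0.179, so it did not pass.

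*CXCL12* minus *CXCR4* was 1.19, 3.09, 2.05, 1.15 and 0.47 in Perthes rabbits and 1.33, 2.55 and 2.14 in controls, with overlapping groups. The group difference was -0.42 (exact permutation test, two-sided, adjusted p = 0.536), so a change in the balance of this ligand and its receptor was not shown. Leaving out single rabbits moved it between -0.79 without Perthes rabbit 2 and -0.14 without Perthes rabbit 5. *VCAM1* minus *ITGA4*, the integrin chain that binds it, differed by -0.96 and ranged from -2.21 to 0.80 in the Perthes disease group (exact permutation test, adjusted p = 0.491). *ANGPT1* minus *TEK* differed by 0.63 (exact permutation test, adjusted p = 0.268) and *FLT3LG* minus *FLT3* by -0.48 (exact permutation test, adjusted p = 0.491), which was -0.13 without Perthes rabbit 1 and -0.23 without control rabbit 2. *FLT3LG* itself was near 1 CPM, at 0.68 ± 0.40 CPM (SD, n = 5) and 0.89 ± 0.43 CPM (SD, n = 3).

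**Figure D4:**
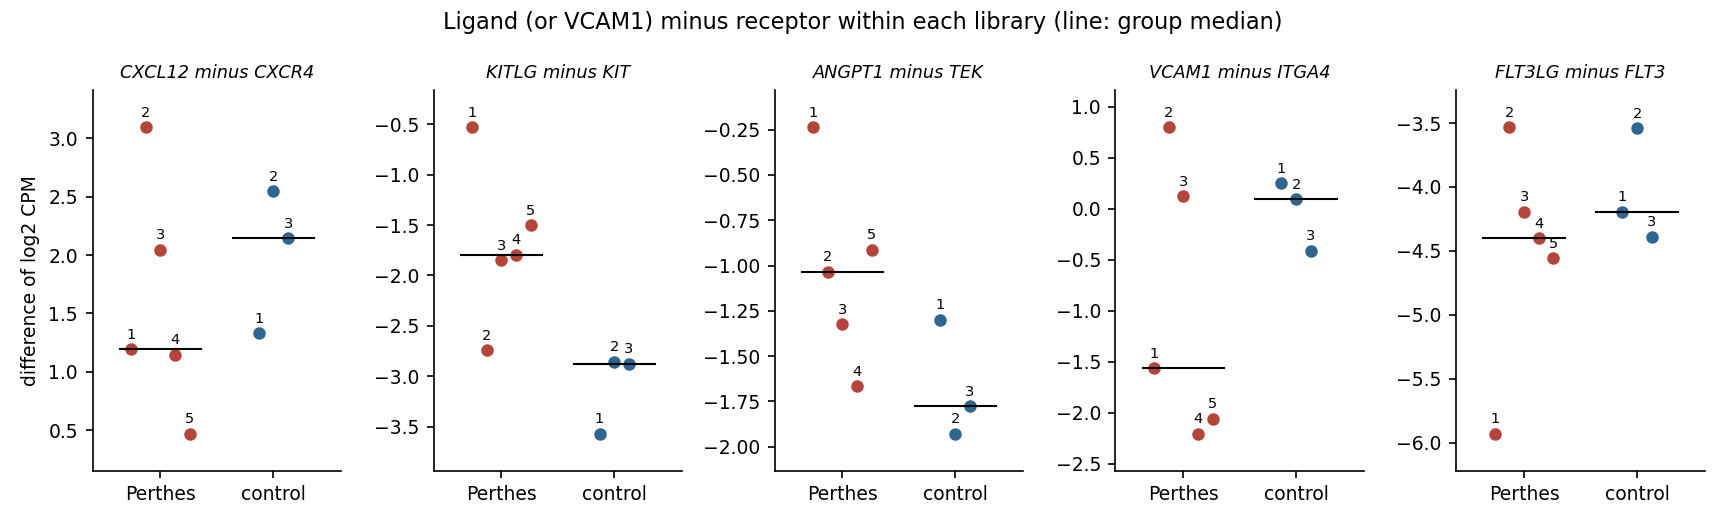
Ligand (or *VCAM1*) minus receptor in log2 CPM within each library for the 5 pairs, with numbered points for rabbits and a line at the group median. In the *KITLG* minus *KIT* panel the Perthes rabbits lie from -2.74 to -0.53 and the controls from -3.57 to -2.86, and the other 4 panels overlap.

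Some within-library comparisons were chosen after the values were seen and are given without a test. Relative to *PTPRC*, which encodes the leukocyte surface protein CD45, *CXCR4* stood at -1.36 ± 0.71 log2 units (SD, n = 5) in the Perthes disease group and at -0.29 ± 0.23 (SD, n = 3) in the controls. These groups did not overlap, although Perthes rabbit 4 at -0.574 was next to control rabbit 3 at -0.553. *PTPRC* itself had a log2 fold change of -0.19 (adjusted p = 0.754 from edgeR). The summed macrophage markers were above the controls in every Perthes rabbit and the summed neutrophil markers below, and their part in this difference was not tested. *GPNMB* made up most of the macrophage sum in Perthes rabbits 1, 2, 3 and 5. It was 314 of 702 CPM in rabbit 4, and 16.0 to 23.3 CPM in controls, whose sums were 352 to 367 CPM. *FLT3* relative to *PTPRC* was -2.97 ± 0.33 (SD, n = 5) against -3.27 ± 0.24 (SD, n = 3). Relative to *PDGFRA*, a receptor of marrow stroma with a log2 fold change of 0.24 (adjusted p = 0.484 from edgeR), *CXCL12* was at -1.10, 0.91, -0.26, -1.53 and -1.25 in Perthes rabbits 1 to 5 and at 1.73, 1.47 and 0.82 in controls. Rabbit 2 lay between controls 2 and 3. *CXCL12* minus *VCAM1* ran from 1.80 to 2.77 in the Perthes disease group and from 1.82 to 2.21 in controls.

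The other genes of the niche were taken from 6 lists, whose counts stand against the 6.21% of all tested genes called higher and 8.87% called lower. Of 16 stem and progenitor cell genes tested, 7 fell and 0 rose, and the list median was -0.62. The other 9 (*PROM1*, *RUNX1*, *LMO2*, *HOXA9*, *MYB*, *HLF*, *MECOM*, *SPINK2* and *PROCR*) were not called. Of the 16 estimates, 3 were above 0 (*RUNX1*, *HOXA9* and *MECOM*). *GATA2*, a transcription factor of stem, mast and megakaryocyte cells, fell by 2.34 on the log2 scale (adjusted p = 0.0153 from edgeR). Its means were 4.05 ± 2.46 CPM in Perthes rabbits (SD, n = 5) and 20.5 ± 8.54 CPM in controls (SD, n = 3). *GFI1*, a repressor used by stem cells and neutrophil precursors, fell by 2.67 (adjusted p = 0.0152 from edgeR, standard error 0.52). The other 5 were *TAL1*, *BCL11A*, *IKZF1*, *MEIS1* and *ERG*, named because the count was small. *KIT* minus *GATA2* was 0.89 to 1.67 in the Perthes disease group and 0.51 to 0.88 in controls, a comparison also chosen after the values were seen and not tested. Of 5 mast cell markers in the table, whose cells also carry KIT, 2 fell, *FCER1A* with a log2 difference of -3.02 (adjusted p = 0.0260 from edgeR) and *SLC18A2* with one of -3.46 (adjusted p = 0.0296 from edgeR). Their summed level was 1.79, 67.6, 16.3, 17.6 and 3.88 CPM in Perthes rabbits 1 to 5 and 133 to 282 CPM in controls, and the share of mast cells in the *KIT* values was not tested.

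Of 11 niche stromal cell genes tested, 1 rose and 0 fell, with a median of 0.32. The riser was *THY1*, a surface protein of stromal and progenitor cells, with a log2 difference of 1.35 (adjusted p = 0.0372 from edgeR, standard error 0.36). Its means were 95.2 ± 23.1 CPM in Perthes rabbits (SD, n = 5) and 37.4 ± 21.5 CPM in controls (SD, n = 3). *PDGFRB*, a pericyte receptor, had a log2 fold change of 0.40 (adjusted p = 0.393 from edgeR). *EBF3*, a transcription factor of CXCL12-rich stromal cells that was picked out after its value was seen, was at 5.29 ± 1.599 CPM (SD, n = 5) and 5.28 ± 1.73 CPM (SD, n = 3). *NGFR*, picked out in the same way, was at 0.75 to 6.61 CPM in Perthes rabbits and 6.64 to 7.68 CPM in controls. Every Perthes rabbit was below every control, as in 13.9% of all tested genes, rabbit 3 by a small margin. Its log2 fold change was -1.31 and did not pass (adjusted p = 0.204 from edgeR). Of the 11 estimates in the list, 9 were above 0 and 2 below.

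Of 12 other niche signals tested, 0 passed in edgeR (5 at an unadjusted p below 0.05, all above 0), DESeq2 called 2 higher and 0 lower, and their median was 0.57. *SPP1*, the osteopontin gene, was the most abundant, at 2030 ± 591 CPM (SD, n = 5) and 1089 ± 566 CPM (SD, n = 3), and its log2 difference was 0.90 (adjusted p = 0.171 from edgeR). Among 13 receptors and partners, 2 rose and 2 fell. *ITGA4* fell by 0.89 (adjusted p = 0.0192 from edgeR, standard error 0.19), and its partner chain *ITGB1*, which many cell types share, rose by 0.91 (adjusted p = 0.0274 from edgeR, standard error 0.22). *IL7R*, the receptor of a lymphoid growth factor, rose by 3.01 (adjusted p = 0.0296 from edgeR, standard error 0.75).

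Of 6 tested proteases that can cut niche factors, 3 rose and 0 fell. *MMP2* and *MMP14*, matrix metalloproteinases, had log2 fold changes of 1.19 (adjusted p = 0.0153 from edgeR) and 1.44 (adjusted p = 0.0258 from edgeR). The third, named because the count was small, was *CTSK*, a resorptive protease of osteoclasts, at 1.83 (adjusted p = 0.0272 from edgeR). *DPP4*, which clips CXCL12, had a log2 fold change of -0.12 (adjusted p = 0.828 from edgeR) and was picked out after its value was seen. Over the 6 lists together, 7 of 69 tested genes rose and 9 fell, beside 6.21% and 8.87% of all tested genes. All of these calls were lost without control rabbit 1 and without control rabbit 2. They were 1 and 4 without Perthes rabbit 3, 2 and 3 without Perthes rabbit 5, 11 and 9 without Perthes rabbit 4, and 6 and 5 without control rabbit 3.

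**Figure D5:**
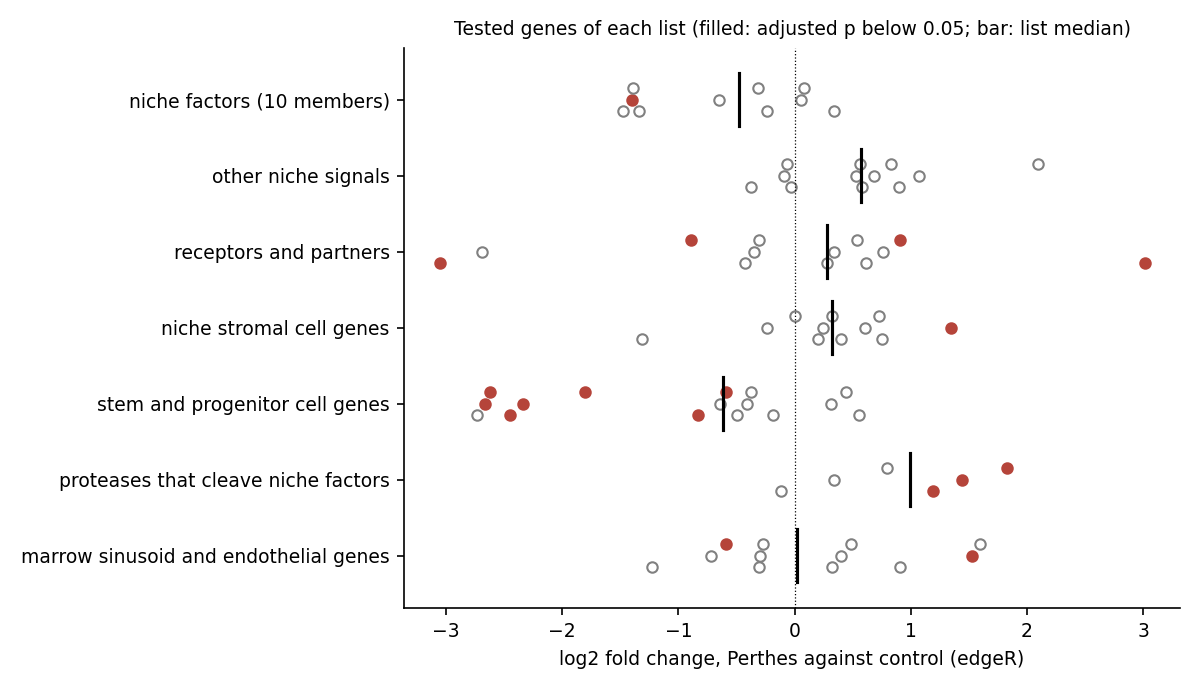
Log2 fold change (edgeR) of every tested gene in the 10 niche factors and the 6 related lists, with filled points for an adjusted p below 0.05 and a bar at each list's median. The stem and progenitor list holds 7 filled points left of 0 (median -0.62), and the protease list holds 3 right of 0 (median 0.99).

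By likeness of pattern, measured as the root mean square distance of centred log2 CPM over the 8 libraries among 12296 other named mRNAs, *BTNL9* (0.269) and *PTGR1* (0.281) were 2nd and 3rd in nearness to *CXCL12*. *VCAM1* was 10th in that order at 0.324 and *KIT* 68th at 0.467. The nearest to *KIT* were *SPIB* (0.205), *MPST* (0.227) and *PC* (0.231), with *CXCL12* 162nd and *CXCR4* 719th. *SPIB* had under 4 CPM in every library.

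In the authors' annotation, 4 members (*KITLG*, *KIT*, *FLT3* and *CD34*) belong to the KEGG pathway hematopoietic cell lineage, and 3 (*CXCL12*, *CXCR4* and *VCAM1*) to leukocyte transendothelial migration. Of the 92 tested genes of hematopoietic cell lineage, a list taken up after the data were seen, 7 rose and 11 fell, beside 6.21% and 8.87% of all tested genes, with a median log2 fold change of -0.27.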

How the data were processed

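Total RNA-seq of 8 femoral heads was used, and the 8 small RNA samples were not used here. The authors filtered reads with SOAPnuke, and their processing notes name HISAT2 2.0.4, HTSeq 1.99.2 and RSEM 1.1.17 with a rabbit assembly. The values the authors deposited are unnormalized expected counts, and up to 10.7% of them in a library were not whole. Reads of near-identical genes are shared out by that estimate. A further 8 columns of per-sample values equal those used and were left out.

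Expected counts were rounded. edgeR 4.0.16 in R 4.3.3 was run with TMM, filterByExpr by group and the quasi-likelihood test, with Benjamini-Hochberg adjustment over 15305 genes. All 10 members passed the low-count filter. Standard errors are the fold change divided by the square root of F, and 95% intervals use the fit's degrees of freedom. Log2 CPM used a prior count of 2. Precision was limited by spread between rabbits, and by counting for *KITLG* and *FLT3LG*. The labels do not say whether rabbits shared a litter or batch. Replicate numbers came from the codes in the labels. The title of the third control repeats the number 2. Exact permutation tests used 56 divisions (scipy 1.17.1).

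On simulated counts, where 200 of 15305 genes were given a log2 difference of 2, edgeR recovered 77.5% with 12 wrong calls, and DESeq2 88.0% with 64. That difference was larger than any member's estimate in the main fit (-1.48 for *KIT*), so the recovery does not give the power for the members. The alternatives were DESeq2 1.42.0, its size factors, library totals, other filters and thresholds, a replicate block, and leaving out single rabbits.

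The members, the 6 related lists and 14 marker lists were chosen with earlier results of these data known. Named genes were drawn from the members, up to 2 called genes per direction with the smallest p in each list (or the most abundant gene where fewer than 2 were called), pair partners, and the 3 mRNAs nearest in pattern to *CXCL12* and *KIT*. A few genes that the rule picks are not reported here. A symbol match to RefSeq (mOryCun1.1) held for 10 of 10 members. No coordinates or sequences were used.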

Additional observations from a re-analysis of the deposited data

Results flagged for a closer look

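A value was marked where the highest or lowest of the 5 Perthes rabbits was separated from the next by more than 0.71 of the group's range, Dixon's 95% limit for 5 samples. Of 46 groups of values examined (10 members, 5 signal and receptor pairs, and genes named from the lists), 7 were marked. Chance marks about 1 in 20 only where values are normally distributed. For genes the limit was applied to CPM and not to log2 CPM, and a single high value stands out more on that scale. The genes also share their rabbits, so the marks are descriptive and do not show that a rabbit lies beyond chance. Among the members, *CXCL12* was marked for Perthes rabbit 2, at 467 CPM with a group median of 96.0 CPM. The same rabbit was marked for the blood cell genes *SLC4A1* (819 CPM, median 149), *ITGA2B* (62.0 CPM, median 21.0) and *CD79B* (10.03 CPM, median 2.95), and for the cell division gene *MKI67* (315 CPM, median 92.5). Perthes rabbit 4 was marked low for the macrophage gene *GPNMB* (314 CPM, median 4185), and Perthes rabbit 5 high for *SPP1* (3066 CPM, median 1854).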

How the results depend on the processing

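Of the 10 members, 7 kept the direction of their fold change in all 14 alternative fits. *FLT3* was at -0.0082 with library totals, -0.091 and -0.059 without Perthes rabbits 1 and 3, and -0.15 and -0.15 without control rabbits 2 and 3 (-0.15 to 0.57 over all rabbits left out). *CD34* was at -0.020 with library totals, -0.039 with the replicate block, -0.015 without Perthes rabbit 3 and -0.068 without control rabbit 1 (-0.068 to 0.28). *FOXC1* was at 0.12 without control rabbit 3 (-0.66 to 0.12). None of these signs was called in any fit. Members called lower numbered 2 with DESeq2 and 0 at the study's thresholds (adjusted p below 1e-05, log2 fold change beyond 2), which no gene could meet in edgeR, where the smallest adjusted p was 0.0118. They ranged from 0 (without control rabbit 2) to 4 (without Perthes rabbit 2) when a rabbit was left out. Over all genes, DESeq2 called 1700 higher and 1917 lower against 951 and 1357 in edgeR. The 1917 lower calls were among 17451 tested genes. Whether 2 of 10 members exceeds that share was not tested. The study's thresholds left 0 and 0 of all genes, and leaving out a rabbit gave 0 to 1267 higher and 0 to 1628 lower. Without control rabbit 2, where edgeR called 0, 1624 and 2098 had an unadjusted p below 0.05. In the 6 related lists, DESeq2 called 12 higher, the study's thresholds left 0 and 0, and leaving out a rabbit gave 0 to 11 higher and 0 to 9 lower. With the replicate number as a block, edgeR called 0 genes, 0 members and 0 related genes in either direction, with 1504 higher and 1648 lower at an unadjusted p below 0.05. The log2 fold change of *CXCR4* was -1.35 in the block fit (adjusted p = 0.152 from edgeR). The labels do not say whether a shared number pairs rabbits. Rabbits with a shared number deviated from their group means with correlations of -0.317, 0.161 and -0.238. The mean was 0.0319 over 12 differently numbered pairs. So few correlations cannot tell whether the numbers mark a shared litter or batch. The signal and receptor differences moved by less than the larger of the group SDs in every alternative run, but with the block *VCAM1* minus *ITGA4* went from -0.96 to -0.19 and *CXCL12* minus *CXCR4* from -0.42 to 0.10. With the block, the signal and receptor differences came from the 6 libraries numbered 1 to 3. No control is numbered 4 or 5, so Perthes rabbits 4 and 5 dropped out of these block differences. The cause of the other moves was not tested.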

Other observations

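The marker lists not described above give the other cells of these femoral heads. All 5 dividing cell genes fell, with *BUB1* at a log2 fold change of -2.03 (adjusted p = 0.0118 from edgeR) and *MKI67* at -2.51 (adjusted p = 0.0133 from edgeR), and they summed to 171 to 497 CPM in the Perthes disease group and 1150.2 to 1164 CPM in the controls. Of 5 macrophage markers, 4 rose, led by *GPNMB* at 7.54 (adjusted p = 0.0118 from edgeR) and *CD68* at 2.02 (adjusted p = 0.0165 from edgeR). Of 6 fibroblast markers, 2 rose, *POSTN* by 1.68 (adjusted p = 0.0341 from edgeR) and *COL3A1* by 2.34 (adjusted p = 0.0474 from edgeR).

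Of 6 neutrophil lineage markers, 3 fell, *S100A9*, *LCN2* with a log2 difference of -3.87 (adjusted p = 0.0385 from edgeR) and *S100A8* with one of -3.76 (adjusted p = 0.0439 from edgeR). Of 5 megakaryocyte markers, 2 fell, among them *ITGA2B* with a log2 difference of -2.71 (adjusted p = 0.0274 from edgeR). In all 8 erythroid markers every Perthes rabbit was below every control, as in 13.9% of all tested genes, and their median log2 fold change was -3.04. *SLC4A1*, the most abundant of them, did not pass and had a log2 fold change of -3.07 (adjusted p = 0.114 from edgeR).

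No gene passed in edgeR among 7 tested B cell precursor entries (median -1.07), 4 T cell markers (-0.70), 5 chondrocyte markers (1.01), 7 osteoblast and osteocyte markers (0.06), 5 adipocyte markers (-0.24) and 2 skeletal muscle markers (-1.48). The B cell precursor entries count *IGLL1* as 2 separate entries. At an unadjusted p below 0.05 these lists held, in that order, 2, 0, 2, 2, 0 and 1 genes. DESeq2 called 1 B cell precursor marker lower and 1 osteoblast and osteocyte marker higher, and 0 in the other lists.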
